A study of Mus musculus with 4 samples.

Results

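The genes described here act at the cell surface in plasminogen activation and in the start and restraint of blood coagulation. They are the urokinase receptor gene *Plaur*, the plasminogen activator genes *Plau* and *Plat*, the serpin gene *Serpine2*, the tissue factor gene *F3*, the Kunitz inhibitor genes *Tfpi* and *Tfpi2*, and the protein C pathway receptor genes *Thbd* and *Procr*. These 9 genes of the 53379 listed in the files were matched by exact symbol. They were selected on their expected counts and TPM values in PD800 against PD100 cells, with earlier results on these libraries known, so their levels and fold changes are given as a description, with no test. Of the 9 genes, 8 passed the filter on low counts, and *Tfpi2* did not.

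Both groups were feeder-free mouse embryonic stem cells of DKO741, a Terc−/− line recovered from E14 cells after targeting of both alleles of the telomerase RNA gene. PD100 cells were taken at population doubling 100 and PD800 cells at population doubling 800, with 2 libraries of each, and all 4 libraries therefore lack *Terc*. The labels speak of passages as well as doublings, and they name total RNA where the paper names mRNA. The paper calls PD100 cells pre-ALT and PD800 cells post-ALT, where ALT is alternative lengthening of telomeres. It also reports copy-number changes near chromosome ends after ALT activation, and proposes that cells were selected at that stage. DKO741 is 1 line and no other line was analysed here. Time in culture, ALT, copy-number change, selection and features of this line therefore cannot be told apart. The cells had been maintained on mouse embryonic fibroblast feeders before feeder-free growth. The paper calls the samples biological duplicates but does not say whether they came from separate cultures. The p-values therefore set a difference only against the spread between these libraries, estimated across genes, which may not cover that between cultures. *Terc*, the targeted gene, had 1 count in PD100 replicate 1 and 0 counts in the other 3 libraries.

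An expected count is RSEM's estimate of the read pairs that came from a gene, and the totals were 38492149 and 32454121 in PD100 replicates 1 and 2 and 37460820 and 33362106 in PD800 replicates 1 and 2. Counts of all 9 genes were whole numbers in every library. CPM values are counts relative to the library size after TMM scaling. TPM values carry no TMM scaling and are scaled for transcript length and to an equal total. Levels of different genes were therefore compared only in TPM, and fold changes differ somewhat between the 2 scales. A level at or under 3 counts, which is between 0.0743 and 0.0934 CPM in the 4 libraries, was treated as not detected, which covers counting error only. Log2 fold changes are PD800 over PD100 from edgeR.

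Plasmin, a protease that degrades fibrin and matrix proteins, is released from plasminogen by urokinase (*Plau*) and by tissue-type activator (*Plat*), and the urokinase receptor (*Plaur*) concentrates this reaction on the membrane, where serpins restrain it. Tissue factor (*F3*) starts coagulation by binding factor VII and is held back by tissue factor pathway inhibitor (*Tfpi*), while thrombomodulin (*Thbd*) and the endothelial protein C receptor (*Procr*) turn thrombin towards the activation of protein C, an anticoagulant. In the early mouse embryo, parietal endoderm is known to make tissue-type activator and thrombomodulin.

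*Plaur* (ENSMUSG00000046223.10), on chromosome 7 of GRCm38 from 24462484 to 24475968, had 1777 and 1413 counts at PD100, against 47 and 35 counts at PD800. Both PD800 libraries were far below both PD100 libraries, without overlap. The level was 43.2 ± 1.19 CPM at PD100 and 1.20 ± 0.154 CPM at PD800 (mean ± SD of 2 libraries each), with log2 fold change -5.16 ± 0.12 (standard error), the lowest of the 8 tested genes in edgeR's estimate from all libraries. Without PD800 replicate 1 that of *Plat* was lower, at -5.40 against -5.30 for *Plaur*. RNA was measured in bulk, so for each of these genes fewer cells with the transcript and less transcript per cell cannot be told apart.

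In CPM, both PD800 libraries lay below both PD100 libraries for all 8 tested genes of the 9, and over all tested genes this held for 36.3% of them. *Tfpi2* overlapped. Since the genes were chosen on this contrast, nothing was read from that count.

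The plasminogen activators were lower in both PD800 libraries than in either PD100 library. *Plat* (ENSMUSG00000031538.6, chromosome 8, 22757727 to 22782844) had 785 and 589 counts at PD100, against 27 and 14 counts at PD800. Its level was 18.5 ± 1.27 CPM at PD100 and 0.593 ± 0.223 CPM at PD800 (mean ± SD of 2 libraries each), with log2 fold change -4.94 ± 0.21 (standard error). Both PD800 libraries were below the lower PD100 library, and their 2 values stood apart from each other. *Plau* (ENSMUSG00000021822.3, chromosome 14, 20836660 to 20843385) had 201 and 223 counts at PD100, against 38 and 40 counts at PD800. This corresponds to 5.83 ± 1.20 CPM at PD100 and 1.15 ± 0.133 CPM at PD800 (mean ± SD of 2 libraries each), with log2 fold change -2.34 ± 0.23 (standard error). The PD100 libraries were both above the PD800 libraries for *Plau*, and the gap was smaller than for *Plat*. In TPM, *Plat* was above *Plau* in PD100 cells, with a ratio of 3.57 and 2.42 in replicates 1 and 2. In PD800 cells the order was turned, with a ratio of 0.645 and 0.314.

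*Serpine2* (ENSMUSG00000026249.10, chromosome 1, 79794197 to 79861180), which encodes the serpin protease nexin-1, an inhibitor of thrombin, urokinase and tissue-type activator, had 1372 and 1133 counts at PD100, against 924 and 747 counts at PD800. The level was 34.0 ± 0.0302 CPM at PD100 and 24.5 ± 1.74 CPM at PD800 (mean ± SD of 2 libraries each). In log2 units this is -0.47 ± 0.08 (standard error), so the groups did not overlap but the PD800 level was less than 2-fold lower. *Serpine2* thus exceeded both activators by a wider margin in PD800 cells. Its TPM was 2.08 and 2.22 times that of *Plat* at PD100, but 41.0 and 64.6 times at PD800. Against *Plau*, the same ratio was 7.41 and 5.37 in PD100 and 26.5 and 20.3 in PD800.

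*F3* (ENSMUSG00000028128.13, chromosome 3, 121723537 to 121735048), the tissue factor gene, had 2253 and 1865 counts at PD100, against 225 and 210 counts at PD800. Replicates were close within each group, and the PD800 libraries were below the PD100 libraries. The level was 55.8 ± 0.0450 CPM at PD100 and 6.40 ± 0.195 CPM at PD800 (mean ± SD of 2 libraries each), with log2 fold change -3.13 ± 0.08 (standard error). *Tfpi* (ENSMUSG00000027082.15, chromosome 2, 84432855 to 84476775), which encodes its inhibitor, had 3708 and 2386 counts at PD100, against 2181 and 1890 counts at PD800. The PD100 replicates stood apart from each other, at 91.9 and 71.5 CPM, and the PD800 replicates were closer, at 60.7 and 58.8 CPM. The log2 fold change of *Tfpi* was -0.45 (standard error 0.13). It was -0.26 without PD100 replicate 1 and -0.64 without PD100 replicate 2, so the size of this difference rests on which PD100 library is used. The TPM of *Tfpi* was 1.44 and 1.04 times that of *F3* in PD100 replicates 1 and 2, and 8.45 and 8.49 times that of *F3* in PD800 replicates 1 and 2.

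The mean transcript length of *Tfpi*, which RSEM weights by the estimated abundance of the isoforms, also differed between the groups. It came to 2020 and 1994 bases at PD100, but 1849 and 1820 bases at PD800, so both PD800 values were shorter. GENCODE M21 lists 10 transcripts of *Tfpi*, 8 of them protein-coding, between 1232 and 3968 bases long. The mean length of *Plat* also differed without overlap, in the other direction, at 2544 and 2546 bases in PD100 and 2610.4 and 2680.0 bases in PD800, where few reads remained. Mean lengths of *Plaur*, *Serpine2*, *F3* and *Procr* overlapped between the groups, and those of *Plau*, *Tfpi2* and *Thbd* did not vary. The share of all genes whose mean length differed without overlap was not computed, so nothing was read from the lengths of *Tfpi* and *Plat*. The isoforms themselves were not analysed here. *Tfpi2* (ENSMUSG00000029664.10, chromosome 6, 3962595 to 3988919), which encodes a Kunitz inhibitor of plasmin and other proteases, had 4 and 7 counts at PD100, against 5 and 4 counts at PD800. These counts were just above the limit of detection and overlapped between the groups, so a difference was not detectable at this depth.

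*Thbd* (ENSMUSG00000074743.4, chromosome 2, 148404466 to 148408188), the intronless gene of thrombomodulin, had 589 and 473 counts at PD100, against 22 and 32 counts at PD800. Its level was 14.4 ± 0.297 CPM at PD100 and 0.804 ± 0.271 CPM at PD800 (mean ± SD of 2 libraries each), with log2 fold change -4.17 ± 0.20 (standard error). The PD800 libraries were both below the PD100 libraries by a wide margin. *Procr* (ENSMUSG00000027611.12, chromosome 2, 155751117 to 155755471), the gene of the endothelial protein C receptor, had 324 and 243 counts at PD100, against 58 and 64 counts at PD800. Its level was 7.65 ± 0.527 CPM at PD100 and 1.80 ± 0.267 CPM at PD800 (mean ± SD of 2 libraries each), with log2 fold change -2.09 ± 0.17 (standard error). *Procr* was likewise lower in both PD800 libraries, and in TPM it was above *Thbd* in all 4 libraries. The TPM of *Thbd* was 0.690 and 0.746 times that of *Procr* in PD100 and 0.153 and 0.185 times in PD800.

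**Figure D1:**
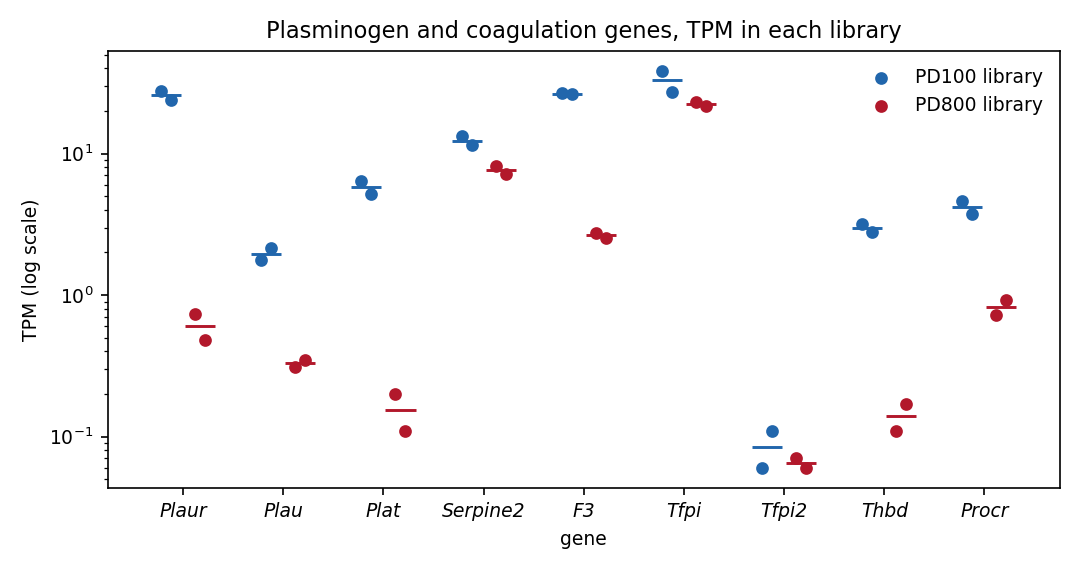
TPM of each gene (log scale) in the 2 PD100 libraries (blue) and the 2 PD800 libraries (red), with a horizontal line at each group mean. *Tfpi* and *Serpine2* lie close together between the groups, *Tfpi2* overlaps, and the other 6 genes are separated by a wide gap.

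In PD100 cells the order of mean TPM began with *Tfpi* at 32.9 ± 7.95 (SD, n = 2), *F3* at 26.5 ± 0.424 (SD, n = 2) and *Plaur* at 25.7 ± 2.70 (SD, n = 2). *Tfpi* was on top in both libraries, while *F3* and *Plaur* exchanged places between them. *Serpine2* followed at 12.3 ± 1.20 TPM (SD, n = 2), *Plat* at 5.77 ± 0.827 TPM (SD, n = 2) and *Procr* at 4.18 ± 0.622 TPM (SD, n = 2). *Thbd* at 2.99 ± 0.283 TPM (SD, n = 2), *Plau* at 1.96 ± 0.255 TPM (SD, n = 2) and *Tfpi2* at 0.0850 ± 0.0354 TPM (SD, n = 2) closed the order. In PD800 cells 2 of the 3 inhibitor genes came at the top, *Tfpi* at 22.4 ± 1.12 TPM (SD, n = 2) and *Serpine2* at 7.66 ± 0.771 TPM (SD, n = 2). *F3* was next at 2.64 ± 0.141 TPM (SD, n = 2), then *Procr* at 0.820 ± 0.141 TPM (SD, n = 2) and *Plaur* at 0.605 ± 0.177 TPM (SD, n = 2), which exchanged places between the libraries. *Plau* at 0.330 ± 0.0283 TPM (SD, n = 2) stood above *Plat* at 0.155 ± 0.0636 TPM (SD, n = 2) and *Thbd* at 0.14 ± 0.0424 TPM (SD, n = 2), and the last pair exchanged places between the libraries. The other inhibitor gene, *Tfpi2*, was last in both PD800 libraries, at 0.0650 ± 0.00707 TPM (SD, n = 2). Summed over the 9 genes, TPM came to 122 and 103 at PD100, but 36.2 and 33.3 at PD800. *Serpine2*, *Tfpi* and *Tfpi2* together made up 42.4% and 37.8% of that sum in PD100 and 86.7% and 86.3% in PD800, so the PD800 sum came mostly from *Tfpi* and *Serpine2*.

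The genes lie on 7 chromosomes, and no other gene of GENCODE M21 overlaps any of them. The 40 tested genes nearest to a gene on its chromosome had a median log2 fold change of 0.12 for *Plaur*, -0.47 for *Plat*, 0.30 for *Thbd* and 0.70 for *F3*. It was -0.48 for *Plau*, 0.16 for *Procr*, 0.13 for *Serpine2* and -0.14 for *Tfpi*, against a median of 0.01 over all tested genes. Within 100 kb, the median was -0.19 for *Plaur* (7 genes), -0.29 for *Serpine2* (3 genes) and -0.13 for *Procr* (7 genes), on the other side of 0 from the wider median, and 1.13 for *F3* (4 genes), on the same side. It was -1.15 for *Plau* (2 genes), -0.14 for *Plat* (4 genes), -0.27 for *Tfpi* (1 gene) and 0.41 for *Tfpi2* (2 genes), where the wider median of *Tfpi2* was 0.09.

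**Figure D2:**
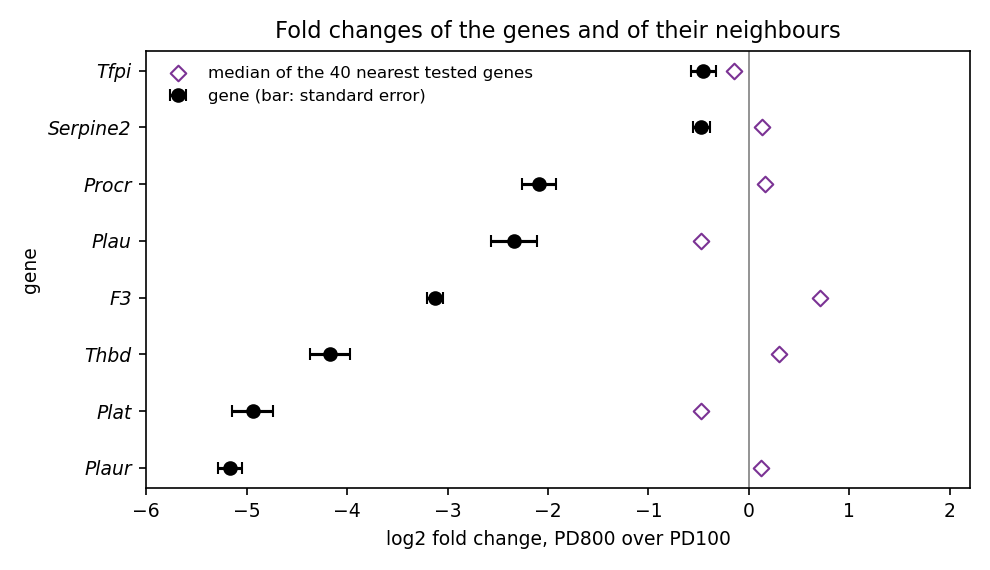
For each tested gene, log2 fold change of PD800 against PD100 (black points, bars show the standard error) and the median log2 fold change of the 40 tested genes nearest to it (open diamonds). The points reach down to -5.16, while the medians lie between -0.48 and 0.70.

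Within 100 kb of the 9 genes lay 30 tested genes, of which 3 were called lower and 2 higher in the edgeR analysis, where 8.81% of all tested genes were lower and 6.28% higher, and nothing local was read from these counts. Near *Plaur*, the potassium channel gene *Kcnn4* and the adhesion gene *Cadm4* were lower, with log2 fold changes of -2.54 (standard error 0.31) and -1.10 (standard error 0.19), and *Smg9*, *Zfp428*, *Irgq*, *Pinlyp* and *Xrcc1* were not called. Near *Plau*, the vinculin gene *Vcl* was lower by -1.88 on the log2 scale (standard error 0.09), and *Camk2g* was not called. Near *F3* the direction was the opposite, since the peroxisomal transporter gene *Abcd3* was higher, from 33.1 and 28.6 CPM in PD100 to 65.2 and 65.6 CPM in PD800, with log2 fold change 1.08 ± 0.10 (standard error). The transcript *4633401B06Rik* was higher by 1.51 (standard error 0.28), and *Gm42777* and *Gm43609* were not called. None of the tested neighbours of the other genes was called. These were *Ikbkb*, *Ap3m2*, *Kat6a* and *Gm45555* near *Plat*, *Wdfy1*, *Mrpl44* and *Gm5529* near *Serpine2*, *Calcrl* near *Tfpi*, and *Gng11* and *Bet1* near *Tfpi2*. Near *Procr* they were *Trpc4ap*, *Edem2*, *Mmp24*, *BC029722*, *Eif6*, *Fam83c* and *Uqcc1*, and *Thbd* had no tested gene within 100 kb.

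Promoter sequences of 6 of the 9 genes, in 9 windows, were found in the RefSeq table for GRCm38.p6, and *Plau*, *Plat* and *Thbd* were not matched. The 250 bases before each start in that table were searched on both strands for fixed letters of AP-1, TEAD, a TATA box, a GC box, CRE, NF-kB and GATA. AP-1 letters (TGANTCA) were found in windows of *Plaur*, *F3*, *Procr* and *Tfpi2*, 4 of the 9 windows, and in 6.75% of the 32817 promoters of the table. *F3* held 2 AP-1 matches, at 146 and 135 bases before the start, which 0.338% of all promoters matched or exceeded, and *Plaur* held 1 at 69 bases. In windows not shown, *Procr* held 1 at 154 bases, and *Tfpi2*, whose counts overlapped between the groups, held 1 at 77 bases. GC boxes (GGGCGG) were present in 6 of the 9 windows, in 32.7% of all promoters, and NF-kB letters in 3 windows, in 17.6% of all promoters. A TATA box was present in 1 *Tfpi* window and in 12.4% of all promoters, and GATA letters in the other *Tfpi* window and in 9.99%. TEAD and CRE letters were in 0 of the 9 windows, against 12.6% and 1.55% of all promoters. A match is a description of letters, not a site or a cause, and the absence of a match says only that these letters are not in the window. The windows of *Plaur* and *F3*, which were much lower in PD800 cells, and of *Tfpi*, which was not, are shown on the strand of the gene from 5′ to 3′, with every motif match in capitals. They lie at chr7:24462233-24462482 (plus strand), chr3:121723287-121723536 (plus strand) and chr2:84476760-84477009 (minus strand). From left to right, the capitals of the *Plaur* window mark a run of 3 GC boxes, of which the last 2 share a base, then AP-1 and NF-kB. Those of the *F3* window mark NF-kB, AP-1, AP-1, a GC box, NF-kB partly overlapped by a GC box of the other strand, and a GC box. Those of the *Tfpi* window mark a TATA box and a GC box, both read on the other strand. The NF-kB letters matched were GGGAGGAGCC in *Plaur*, and GGGATCAGCC and GGGAGCCGCC in *F3*. How closely they resemble a site that NF-kB binds was not scored. In GENCODE M21, 116 bases of the *F3* window lie in exons of *Gm43823*, a different gene, and 16 bases of the *Tfpi* window lie in an exon of *Tfpi*. Of the windows not shown, that of *Procr* has 100 bases in exons of *Procr*. The *Tfpi2* windows at 3988859 to 3989108 and 3988937 to 3989186 overlap each other, so the 9 windows are not all separate.
Plaur: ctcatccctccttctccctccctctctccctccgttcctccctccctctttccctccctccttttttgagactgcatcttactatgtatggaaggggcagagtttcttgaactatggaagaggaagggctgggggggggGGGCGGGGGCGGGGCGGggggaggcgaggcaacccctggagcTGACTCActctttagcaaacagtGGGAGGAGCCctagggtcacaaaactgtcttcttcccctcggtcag
F3: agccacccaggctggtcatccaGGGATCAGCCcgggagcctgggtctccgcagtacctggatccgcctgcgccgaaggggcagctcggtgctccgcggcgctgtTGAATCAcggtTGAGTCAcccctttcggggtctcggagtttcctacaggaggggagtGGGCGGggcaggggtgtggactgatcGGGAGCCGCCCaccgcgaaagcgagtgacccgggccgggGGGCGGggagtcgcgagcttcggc
Tfpi: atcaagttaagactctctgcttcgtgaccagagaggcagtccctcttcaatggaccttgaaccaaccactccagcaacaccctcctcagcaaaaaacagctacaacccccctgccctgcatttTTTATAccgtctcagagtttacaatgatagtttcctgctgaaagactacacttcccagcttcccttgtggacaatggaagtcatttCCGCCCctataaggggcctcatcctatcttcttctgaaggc

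Other genes of plasminogen activation were taken from a list of 24, of which 18 were tested. The quasi-likelihood test of edgeR, adjusted after Benjamini-Hochberg, called 5 of them lower in PD800 cells (27.8% of the tested genes of the list, against 8.81% of all tested genes). None was higher by this test, against 6.28% of all tested genes, while 2 were higher and 12 lower at an unadjusted p under 0.05, and DESeq2 likewise called 0 higher. The median log2 fold change of the 18 genes was -0.59, against 0.01 over all tested genes. *Anxa2*, which encodes an annexin that binds plasminogen and tissue-type activator on the cell surface, fell from 126.8 and 128.7 CPM to 20.6 and 22.5 CPM, and its log2 fold change was -2.57 ± 0.08 (standard error), for which the quasi-likelihood test of edgeR, adjusted after Benjamini-Hochberg, gave an adjusted p of 3.82e-05. Its partner gene *S100a10* was not called, at 74.1 and 71.7 CPM in PD100 and 63.3 and 59.0 CPM in PD800. The gelatinase gene *Mmp2* had a log2 fold change of -1.56 (standard error 0.10) and *Lrp2*, the gene of the endocytic receptor megalin, of -1.27 (standard error 0.07), where the edgeR test gave adjusted p values of 0.000147 and 0.000107 after Benjamini-Hochberg. *Hpn*, which encodes the membrane protease hepsin, had 244 and 276 counts at PD100, against 128 and 102 counts at PD800, and its log2 fold change was -1.08 ± 0.19 (standard error), for which the quasi-likelihood test of edgeR, adjusted after Benjamini-Hochberg, gave an adjusted p of 0.00606. The call of *Hpn* was lost without PD100 replicate 2, where its log2 fold change was -0.86, without either PD800 library, and with limma on log2(TPM + 1), where it was -0.90, and its adjusted p ranged from 8.60e-09 to 0.0262 over the 10 alternatives. *Eno1*, the most abundant gene of the list, was at 389 and 397 TPM in PD100 and 385 and 374 TPM in PD800 and was not called. *Plg*, the gene of plasminogen itself, had 2 counts in PD100 replicate 1 and 0 in the other libraries, so plasminogen transcripts were at or under the limit of detection in all 4 libraries.

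Of 32 further coagulation genes, 17 were tested and 11 were at or under 3 counts in every library. By edgeR's quasi-likelihood test, 1 was higher (*Proc*) and 1 lower (*F5*), 5.88% of the tested genes of the list in each direction, against 6.28% and 8.81% of all tested genes. The median log2 fold change of the 17 genes was 0.09. *Proc*, the gene of protein C, had 10 and 6 counts at PD100, against 35 and 29 counts at PD800, and its log2 fold change was 2.10 ± 0.33 (standard error), for which the quasi-likelihood test of edgeR, adjusted after Benjamini-Hochberg, gave an adjusted p of 0.00361. It thus differed in direction from *Thbd* and *Procr*, the receptors on which protein C is activated. *F5*, the gene of coagulation factor V, fell from 196 and 112 counts to 63 and 46 counts, and its log2 fold change was -1.37 ± 0.25 (standard error), for which the quasi-likelihood test of edgeR, adjusted after Benjamini-Hochberg, gave an adjusted p of 0.00653. Both calls were lost when either PD800 library was left out, at log2 fold changes of 2.05 and 2.16 for *Proc* and -1.52 and -1.23 for *F5* without PD800 replicate 1 and 2. They were also lost with limma on log2(TPM + 1), at 0.35 and -0.31, and on log2(TPM + 0.1), at 1.28 and -1.09, and that of *Proc* with DESeq2, at 2.11. The adjusted p over the 10 alternatives ranged from 2.55e-06 to 0.0182 for *Proc* and from 1.80e-08 to 0.0383 for *F5*. The most abundant genes that were not called were *Lman1*, a cargo receptor for factors V and VIII, at 25.2 and 24.3 TPM in PD100 and 23.0 and 22.1 TPM in PD800, and *Vkorc1*, the vitamin K reductase, at 15.6 and 14.4 TPM in PD100 and 16.8 and 14.8 TPM in PD800. *F7*, the gene of the ligand of tissue factor, had 0 and 3 counts at PD100, against 1 and 0 counts at PD800, and *F10*, *F9* and *F11* were at 0 in all libraries. These genes, like *Plg*, were named after their values were seen.

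Markers of the labelled cell type were present in all 4 libraries. All 10 embryonic stem cell markers were tested, their summed TPM was 1430 and 1772 in PD100 and 2048 and 2107 in PD800, and *Dppa5a* was the most abundant. Of these, 3 were higher in PD800 cells by edgeR's test, against 6.28% of all tested genes, among them *Klf4* with log2 fold change 2.84 ± 0.12 (standard error) and *Nanog* with 2.32 (standard error 0.09).

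Of 12 parietal endoderm markers, all were tested and 11 were lower in PD800 cells by edgeR's quasi-likelihood test (8.81% of all tested genes were lower), and the summed TPM was 596 and 593 in PD100 and 75.5 and 72.7 in PD800. *Sparc* was the most abundant, at 222 and 194 TPM in PD100 and 27.3 and 26.5 TPM in PD800. The largest log2 fold changes of the list were those of *Sox17*, at -6.03 (standard error 0.15), and *Col4a2*, at -4.86 (standard error 0.14), whereas *Nid1* was at 0.96, higher in both PD800 libraries but under 2-fold and so not called. No marker of this list was at 0. Of 10 visceral endoderm markers, 7 were tested and 3 were lower, against the same share over all tested genes, with a summed TPM of 8.42 and 6.74 in PD100 and 1.79 and 1.20 in PD800. *Cubn*, the most abundant by mean TPM over the 4 libraries though not in PD800 cells, had a log2 fold change of -4.46 ± 0.18 (standard error), and *Foxa2* had 230 and 147 counts in PD100 and 1 count in each PD800 library. *Afp* and *Ttr*, named after their values were seen, each had 3 and 4 counts in PD100 and 0 counts in PD800. *Apob* was not called and had 157 and 87 counts at PD100 and 226 and 152 counts at PD800. The part of such cells in the differences of the 9 genes was not tested.

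The shares over all tested genes, 8.81% lower and 6.28% higher, also stand beside the counts of the lists that follow. Of 10 trophoblast markers, 7 were tested, 4 were lower and 1 was higher, with a summed TPM of 11.8 and 10.8 in PD100 and 3.89 and 3.39 in PD800. *Krt7* was the most abundant by mean TPM over the 4 libraries, though *Eomes* and *Ascl2* were above it in PD800 cells. *Krt7* had a log2 fold change of -3.75 (standard error 0.13), *Hand1* was at -2.92 (standard error 0.28), and *Prl3d1*, a marker of giant cells, was at 0 in all libraries. The higher gene was *Eomes*, with log2 fold change 1.98 (standard error 0.17). Of 10 fibroblast markers, which bear on the feeders used in maintenance, 9 were tested and 5 were lower, with a summed TPM of 13.8 and 13.7 in PD100 and 4.17 and 4.22 in PD800. *Thy1* was the most abundant by the same mean, though not in PD100 replicate 2, *Col1a1* and *Col3a1* had log2 fold changes of -3.07 (standard error 0.34) and -2.52 (standard error 0.29), and *Lum* had 0 counts in PD100 and 0 and 1 counts in PD800. Of 10 endothelial markers, 9 were tested and 3 were lower, but the summed TPM was similar, at 29.3 and 26.1 in PD100 and 26 and 22.3 in PD800. *Pecam1* made up most of that sum, at 17.1 and 15.5 TPM in PD100 and 17.3 and 15.2 TPM in PD800. The log2 fold change was below 0 for 6 of the tested markers and above 0 for 3. *Cdh5* had a log2 fold change of -2.43 ± 0.37 (standard error) and *Kdr* of -1.81 (standard error 0.21), and *Emcn* was at 0 in all libraries. Of 8 haematopoietic markers, which matched 9 identifiers because *Itgam* has 2, 5 identifiers were tested, 2 were lower and 1 was higher, with a summed TPM of 12.9 and 7.12 in PD100 and 4.86 and 4.0 in PD800. *Cd68* was the most abundant, and *Ptprc* and *Csf1r* had log2 fold changes of -2.41 (standard error 0.45) and -2.19 (standard error 0.25). The higher identifier was the tested one of *Itgam*, with log2 fold change 1.76 (standard error 0.26). *Pf4*, *Gp1bb* and the other *Itgam* identifier had at most 3 counts in every library. For these lists too, their part in the differences of the 9 genes was not tested.

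**Figure D3:**
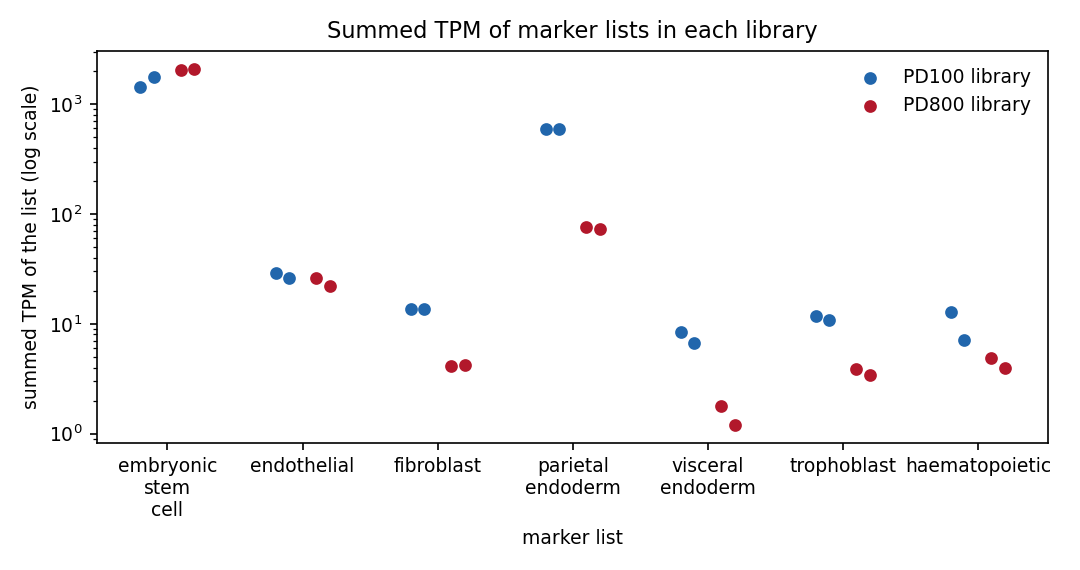
Summed TPM of each marker list (log scale) in the 2 PD100 libraries (blue) and the 2 PD800 libraries (red). The parietal endoderm list is at 596 and 593 in PD100 and 75.5 and 72.7 in PD800, and the endothelial sum, most of it *Pecam1*, is nearly level.

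*Tfpi*, with the highest mean CPM of the 9 genes, was compared with all other tested genes by the Euclidean distance of log2 CPM over the 4 libraries. The nearest were *Med1* at a distance of 0.13, *Clptm1* at 0.14 and *Rarg* at 0.15. Their log2 fold changes were -0.49, -0.33 and -0.48, and *Med1* was at 86.8 and 73.2 CPM in PD100 and 57.1 and 56.8 CPM in PD800.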

How the data were processed

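The labels name STAR 2.5.3a with mm10 for the alignment by the authors and RSEM 1.3.0 for their quantification; the annotation release is not given in the sources used here. The deposited expected count is not scaled for depth, and the deposited TPM is scaled by the authors with RSEM for transcript length and to an equal total. Mean transcript length was also taken from the authors' files. Expected counts were rounded and compared between PD800 and PD100 with the quasi-likelihood test of edgeR 4.0.16 under R 4.3.3, after filterByExpr at minimum count 10 and TMM. Benjamini-Hochberg adjustment covered 19148 tested genes, and calls needed both adjusted p below 0.01 and more than a 2-fold difference. A two-sided exact permutation test of 2 libraries against 2 cannot go below p = 0.333, so the calls rest on the spread estimated across genes. Replicates differed by more than sampling noise, with a chi-square per degree of freedom of 64.1 in PD100 and 9.74 in PD800. The members and lists were chosen with earlier results of these data known. Alternatives were DESeq2 1.42.0, DESeq2 size factors, no expression filter, a replicate block, limma 3.58.1 on log2(TPM + 1) and log2(TPM + 0.1), and each library left out. Positions came from GENCODE M21 (GRCm38), in which 53274 of 53379 identifiers were found without regard to version, and 19133 of the 19148 tested.

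Genes named in the text are the 9 members, and, of the other pathway lists, the called genes and the 2 most abundant that were not called. Of each marker list they are the most abundant gene, those at or under 3 counts in every library and the 2 called genes with the largest log2 fold change, and beside these the 3 genes nearest to *Tfpi* and tested genes within 100 kb. Others were named after their values were seen. A gene to which this rule applies is not reported here. The procedure was tested on simulated data.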

Additional observations from a re-analysis of the deposited data

How the results depend on the processing

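None of the 80 log2 fold changes of the 8 tested genes under the 10 alternatives was reversed. The scale mattered most for these genes except *Tfpi*, which moved most without a PD100 library: with limma on log2(TPM + 1), which understates low genes, the log2 fold change was -1.81 for *Thbd*, -2.55 for *Plat*, -1.15 for *Plau* and -4.06 for *Plaur*. That scale gave 297 higher and 920 lower genes over all tested genes against 1202 and 1686, and log2(TPM + 0.1) gave 533 higher and 1779 lower genes. The median of all genes was then -0.12 and -0.21.

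Of the further coagulation genes, DESeq2 and both limma fits called 0 higher, no expression filter called 2 (*Fgg* was gained), and the number lay between 0 and 1 with each library left out, higher and lower alike; the cause was not tested. Under limma the lower gene was *Mcfd2* in place of *F5*. Leaving out a library leaves 1 in its group, which is assumed to vary like the others.

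Same-numbered libraries share only a number. Their deviations from the group means correlated across genes at 0.265 on edgeR's log2 CPM and at 0.349 on log2(CPM + 0.5). The latter was computed first, and the former scale was taken after that value had been seen to differ from an earlier analysis. With the replicate block, 1461 genes were higher and 1956 lower, and 6 other plasminogen genes were lower, with *Mmp9* gained. The block changed no other call among the pathway lists. With no expression filter, 7 other plasminogen genes were lower, with *Vtn* and *Mmp9* gained. The log2 fold change of *Mmp9* was -1.07 with the block and -1.20 without PD100 replicate 1. With 2 libraries a group and, of the tested genes, fewest PD800 counts for *Plat* and *Thbd*, their PD800 levels rest on few reads.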
